A study of Mus musculus with 16 samples.

Results

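The 40 genes described here drive or mark cell division, 37 of them as proliferation genes and 3, Cdkn1a, Cdkn1b and Cdkn1c, as inhibitors of the cyclin-dependent kinases (CDKs). They were taken by gene name from a count table of 28971 genes, and all 40 had a row there. Of these, 39 passed the filter on low counts. The exception was Bub1, a spindle checkpoint kinase, which had 3 to 11 counts in a library and was not tested.

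Cells enter the cycle when cyclins of the D and E type activate their kinases, the RB proteins are phosphorylated, and the E2F factors switch on the genes of DNA replication. Licensing factors then load the MCM helicase onto origins, nucleotide enzymes supply the building blocks, and the genes of mitosis follow later, many of them repressed in resting cells by the DREAM complex through a promoter element called the CHR. The inhibitors p21 (Cdkn1a), p27 (Cdkn1b) and p57 (Cdkn1c) hold the kinases back. Hes1 encodes a transcriptional repressor downstream of Notch that is known in other tissues to repress genes of these inhibitors. The kidney of a young mouse is still growing, and most of its tubule cells are no longer dividing.

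The study compared kidneys lacking Hes1 in the tubules with kidneys of control littermates. The mutants (Hes1 cKO) carried Hes1 f/f together with Pax8-rtTA and TRE-Cre. Pax8 regulatory sequences drive a doxycycline-dependent activator along the renal tubule, which turns on Cre, which deletes the floxed Hes1. Controls are labelled as wild type littermates. Both groups received doxycycline at 1 mg/mL in water with 5% sucrose for 1 week from 3 weeks of age, so exposure to the drug does not separate them. Whole kidney RNA was sequenced, and in such bulk tissue fewer cells of a type and less RNA per cell cannot be told apart. The table held 3 Hes1 cKO and 4 control libraries, numbered here in column order. The column names give the group but not which titled animal each is.

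Library totals ran from 16973931 to 20420422 counts. Hes1 itself was at 19.8, 17.2 and 17.5 CPM (counts scaled to the size of each library) in the Hes1 cKO libraries and at 42.8, 51.0, 67.6 and 60.9 CPM in the controls, and its log2 fold change was -1.61 ± 0.16 (SE; edgeR quasi-likelihood test, adjusted p = 0.00357). Kidney markers were present in every library: Umod was at 2622 CPM or above and Slc34a1 at 3739 CPM or above, whereas Avpr2, listed as a principal cell marker, was at 0.318 CPM or below. Xist was high in Hes1 cKO 3, control 3 and control 4 and under 1 CPM in the others, so each group held libraries of both kinds. Of 15615 genes tested, 53 were called at an adjusted p under 0.05, 50 of them higher in the Hes1 cKO libraries. Among these calls were 8 of 9 intercalated cell markers.

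No cell cycle gene was called. The count was 0 of 36 tested proliferation genes and 0 of 3 CDK inhibitors, where 0.339% of all tested genes were called. At an unadjusted p under 0.05 there was 1 member, Cdkn1a, and no proliferation gene, against 5.95% of all tested genes. DESeq2's Wald test also called 0 members and gave 1 at an unadjusted p under 0.05. Among the proliferation genes 19 had a higher and 17 a lower fitted value in the Hes1 cKO libraries, and their median log2 fold change was 0.030, where the median of all tested genes was -0.0064. For all 36 the 95% interval of the fold change held 0. In simulated counts of the same size the test recovered 21.54% of genes changed 1.5-fold and 71.43% of genes changed 2-fold. Changes of the smaller size would thus mostly not be called. The changed genes were drawn at random from all tested genes, so these shares are not those of the members. SEs of the members' log2 fold changes ran from 0.095 (Rrm1) to 0.58 (Ccnb2), and a 2-fold change may go uncalled in the noisier members.

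**Figure D1:**
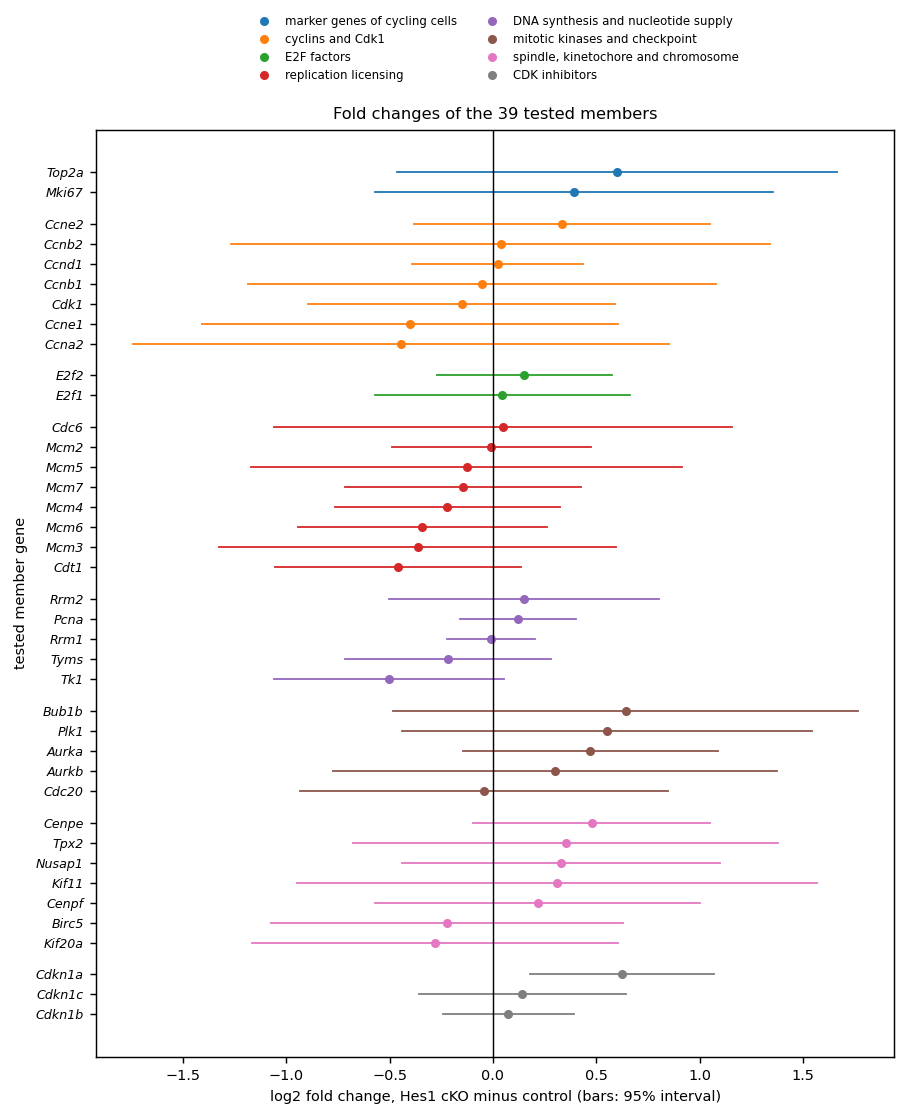
Log2 fold change (x axis, Hes1 cKO minus control) of each of the 39 tested genes (y axis), grouped by role in colour; points are the edgeR estimates and bars their 95% intervals. Every proliferation gene's bar crosses 0, and of the 3 inhibitors only that of Cdkn1a, from 0.18 to 1.07, does not.

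Levels of the members spanned a wide range in the controls. Per kilobase of exon, Ccnd1, the cyclin of early G1, had the highest mean level in the controls, at 41.9 CPM per kb. Pcna, the sliding clamp of the replication fork, was at 14.8 CPM per kb and Cdkn1b at 13.8 CPM per kb. At the other end stood Cenpf, a kinetochore protein, at 0.113 CPM per kb and Bub1 at 0.104 CPM per kb. Each of the 3 inhibitors had a higher mean level per kilobase in the controls than any of the mitotic kinase, checkpoint, spindle, kinetochore and chromosome members.

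Mki67, which encodes the Ki-67 protein of cycling cells, was at 12.4, 5.84 and 5.41 CPM in the Hes1 cKO libraries and at 8.95, 4.02, 8.29 and 2.84 CPM in the controls. Top2a, the topoisomerase that untangles replicated chromosomes, was at 7.09, 4.60 and 3.24 CPM in the Hes1 cKO libraries and at 6.37, 2.81, 2.80 and 1.20 CPM in the controls. Both were highest in Hes1 cKO 1 and lowest in control 4, and the groups overlapped. Their means were 7.89 ± 3.94 (SD, n = 3) against 6.03 ± 3.05 CPM (SD, n = 4) for Mki67 and 4.97 ± 1.95 (SD, n = 3) against 3.29 ± 2.18 CPM (SD, n = 4) for Top2a. Fitted log2 fold changes were 0.39 (95% interval -0.57 to 1.35) and 0.60 (-0.47 to 1.67), and neither difference exceeded the spread between libraries (exact two-sided permutation test, p = 0.543 and p = 0.286). The controls alone differed 3.15-fold in Mki67 and 5.3-fold in Top2a.

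**Figure D2:**
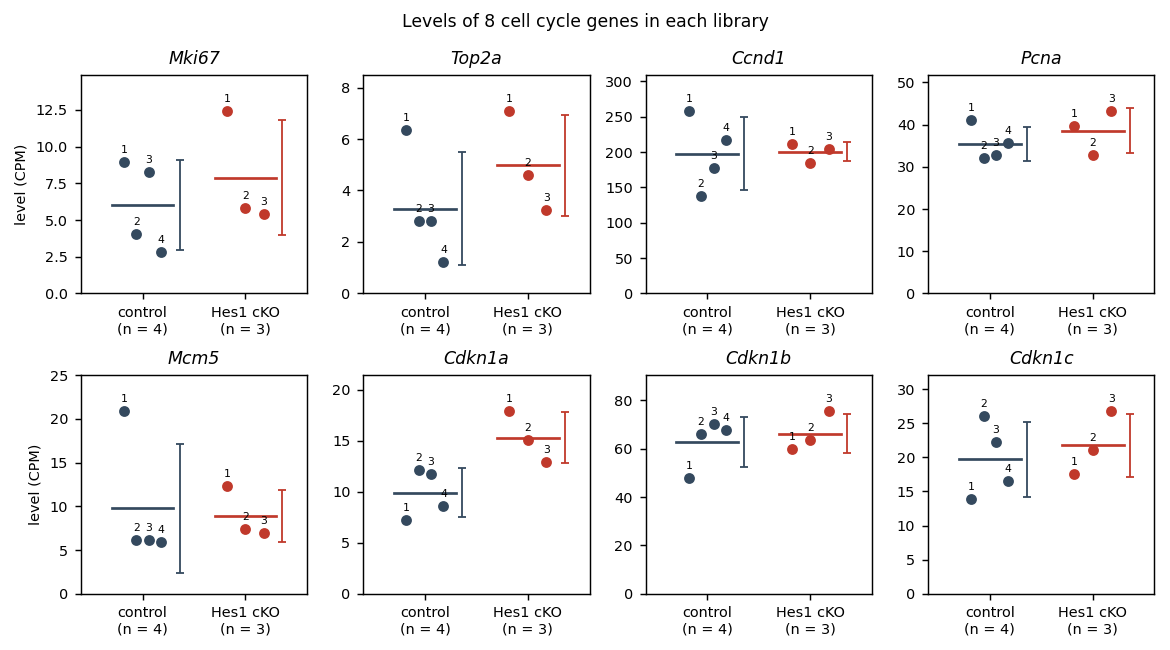
Level in CPM (y axes, each from 0) of 8 genes in the 4 control and 3 Hes1 cKO libraries (x axes); points are libraries with their numbers, horizontal lines group means and bars ± 1 SD. The groups overlap in every panel except that of Cdkn1a, where the Hes1 cKO libraries lie at 12.9 CPM or above and the controls at 12.1 CPM or below.

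The cyclins and Cdk1, the kinase of mitotic entry, split into 3 genes with a higher and 4 with a lower fitted value (median log2 fold change -0.053, and -0.28 to 0.077 with any 1 library left out). Ccnd1 was at 211, 185 and 205 CPM in the Hes1 cKO libraries and at 258, 138, 178 and 216 CPM in the controls. All 3 Hes1 cKO values lay within the range of the controls. Its log2 fold change of 0.022 had an interval of -0.39 to 0.44. Ccne2, a cyclin of S phase entry with the highest fold change of the group, was at 1.16, 1.83 and 1.53 CPM against 1.38, 0.900, 0.878 and 1.64 CPM (log2 fold change 0.33, 95% interval -0.38 to 1.05). Ccna2, the cyclin of S phase and G2, had the lowest: 2.38, 0.791 and 0.588 CPM against 2.52, 1.11, 2.53 and 0.710 CPM (log2 fold change -0.44, 95% interval -1.74 to 0.85). In that gene 3 libraries from both groups, Hes1 cKO 1, control 1 and control 3, stood above the other four. The remaining Ccne1, Ccnb1, Ccnb2 and Cdk1 had log2 fold changes from -0.40 to 0.038.

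E2f1 and E2f2, activating E2F factors, had small fitted differences. E2f1 was at 6.61, 5.84 and 5.82 CPM in the Hes1 cKO libraries and at 9.47, 5.08, 5.05 and 4.04 CPM in the controls (log2 fold change 0.045, 95% interval -0.57 to 0.66). E2f2 was at 4.39, 3.56 and 4.65 CPM against 3.79, 3.87, 4.28 and 3.17 CPM (log2 fold change 0.15, 95% interval -0.27 to 0.58). The controls enclosed all 3 Hes1 cKO values of E2f1, with control 1 above the rest.

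Replication licensing genes showed one pattern shared by all 8 members: control 1 was the highest of the 7 libraries. Of all tested genes, 18.1% were highest in control 1. In all 8, control 1 also lay beyond Dixon's 95% limit for the distance of 1 control from the other 3, as it did in 1.33% of all tested genes. The group comprises Cdc6 and Cdt1, which load the helicase, and Mcm2 to Mcm7, its 6 subunits. Mcm5 was at 20.9 CPM in control 1 and at 6.14, 6.15 and 5.90 CPM in the other controls, while the Hes1 cKO libraries were at 12.4, 7.37 and 7.00 CPM. Cdc6 was at 2.18 CPM in control 1, at 0.635, 0.659 and 0.710 CPM in the other controls and at 1.22, 1.29 and 0.706 CPM in the Hes1 cKO libraries. Cdt1 was at 12.8 CPM in control 1, at 6.83, 6.92 and 6.66 CPM in the other controls and at 7.41, 5.69 and 5.00 CPM in the Hes1 cKO libraries. In each of these genes the other 3 controls lay close together and control 1 far above them, and in 7 of the 8 licensing genes Hes1 cKO 1 was the second highest library. Summed over the 8 genes, control 1 had 192.2 CPM, the other controls 93.2, 95.5 and 92.8 CPM, and the Hes1 cKO libraries 127.1, 90.8 and 90.6 CPM.

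The direction of this group's fitted fold changes rested on control 1. With all libraries, 7 of 8 licensing genes had a lower fitted value in the Hes1 cKO libraries (median log2 fold change -0.18), from -0.46 for Cdt1 (95% interval -1.05 to 0.14) to 0.047 for Cdc6 (95% interval -1.06 to 1.16). The median was -0.39 without Hes1 cKO 1, and -0.31, -0.30 and -0.30 without control 2, 3 or 4. Without control 1 it was 0.15. Mcm5 then moved from -0.13 to 0.56 and Cdc6 to 0.68, while Cdt1 stayed below 0 at -0.17. Without control 1, the proliferation genes were higher in 28 and lower in 8 cases and their median log2 fold change was 0.22. Bub1b (log2 fold change 1.18), Top2a (1.13), Tpx2 (0.94), Mcm5 (0.56) and Cdkn1a (0.50) then had an unadjusted p under 0.05 (edgeR). Their adjusted p (edgeR) was 0.653 or more, and none was called. Control 1 was the highest control in Bub1b, Top2a, Tpx2 and Mcm5, so leaving it out raised their fold changes. These p-values are therefore no separate test, and they were not set against the share of all tested genes in that fit. Leaving out Hes1 cKO 1 moved the balance the other way, to 12 higher and 25 lower with Bub1 then also tested, and a median of -0.11.

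**Figure D3:**
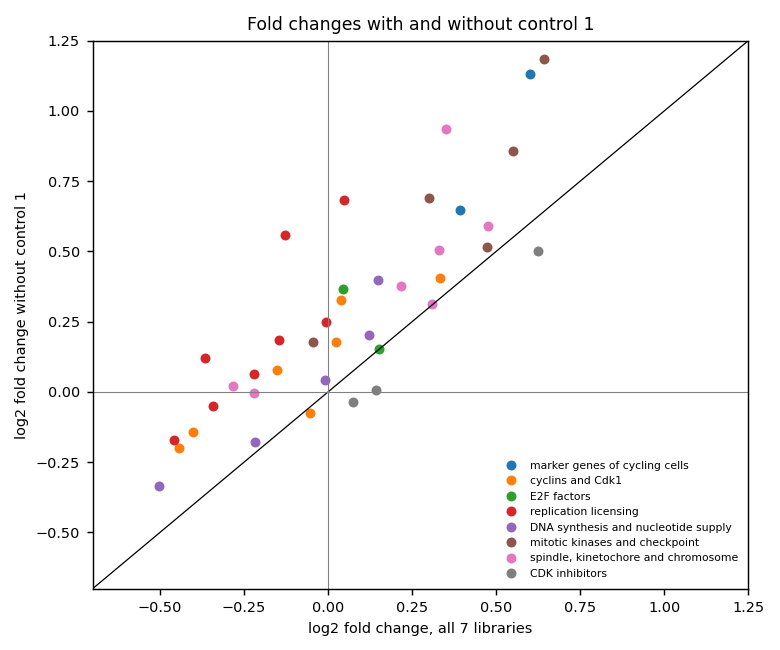
Log2 fold change (Hes1 cKO minus control) of the 39 tested genes with all 7 libraries (x axis) and without control 1 (y axis), coloured by role; the diagonal marks equal values. Most proliferation genes lie above the diagonal and the 3 CDK inhibitors below it, with Cdkn1a at 0.50 on the y axis.

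Marker genes of other cell types also differed between these libraries, some in the order of the licensing genes and some not. Summed over 6 stromal markers, Hes1 cKO 1 had 541.1 and control 1 441.8 CPM, and the other 5 libraries 255.4 to 332.4 CPM. Among the controls, Col1a1 and Col3a1, of fibrillar collagen, and Pdgfrb were highest in control 1, and Dcn and Acta2 were not, while Pdgfra was about as high in control 4. The 7 immune cell markers, of which 1 was not in the table and Cd3e and Itgam were near 0, summed to 71.3 CPM in control 1, 65.8 CPM in Hes1 cKO 1 and 48.2 to 55.3 CPM elsewhere. Most of that sum was Csf1r, a receptor of macrophages, at 64.3 CPM in control 1, whereas the leukocyte gene Ptprc was lower there, at 3.73 CPM, than in the other controls. The 6 adrenal cortex markers summed to 796 CPM in control 1, 205.3 CPM in control 2 and 1067 CPM in Hes1 cKO 3, and to 2.62 to 50.7 CPM in the other 4 libraries. The licensing genes summed to 192.2 CPM in control 1, 93.2 CPM in control 2 and 90.6 CPM in Hes1 cKO 3. The 7 proximal tubule markers summed to 10330 CPM in control 1 and to 7174 to 8345 CPM elsewhere, lowest in Hes1 cKO 1. Slc34a1 alone was at 5454 CPM in control 1. Of the 7 markers, 4 were highest in control 1, and Lrp2, Slc5a2 and Slc5a12 were highest in other libraries. By mean log2(CPM + 1) of the markers, Hes1 cKO 3 was the lowest library. Of 9 intercalated cell markers, 8 were lowest in control 1. The part of these differences in the result was not tested.

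Promoters of most licensing genes held a sequence that was infrequent in promoters as a whole. RefSeq promoter windows (GRCm38.p6, 250 bases before to 50 after a start) were matched by symbol for 32 of the 40 members, with 35 promoters. The E2F letters searched were TTTCCCGC, TTTCGCGC, TTTGCCGC and TTTGGCGC on both strands, and overlapping matches were counted. They stood in 8 of 35 member promoters and in 2.26% of all 32851 promoters. By gene, 6 of the 7 licensing genes with an entry held them, against 2 of the 25 other members, Cdk1 and E2f2. The licensing gene with an entry but without these letters was Mcm2, in which control 1 was also the highest library. Stretches upstream of the start are given for 3 licensing genes, with the E2F letters in capitals on the gene's strand. Whether the letters bear on the levels in control 1 was not tested. The Mcm5 stretch is chr8:75109339-75109478 on the plus strand, that of Mcm6 chr1:128359736-128359875 on the minus strand and that of Cdc6 chr11:98907991-98908120 on the plus strand. None overlaps an exon annotated in GENCODE M21.
Mcm5: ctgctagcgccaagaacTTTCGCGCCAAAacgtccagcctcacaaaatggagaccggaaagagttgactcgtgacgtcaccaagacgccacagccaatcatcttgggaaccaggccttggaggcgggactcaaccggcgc
Mcm6: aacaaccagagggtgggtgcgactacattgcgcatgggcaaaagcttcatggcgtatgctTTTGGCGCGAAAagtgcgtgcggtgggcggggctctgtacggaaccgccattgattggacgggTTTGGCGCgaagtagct
Cdc6: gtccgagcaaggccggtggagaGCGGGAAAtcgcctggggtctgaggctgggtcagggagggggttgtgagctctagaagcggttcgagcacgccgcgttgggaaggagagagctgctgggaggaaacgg
In Mcm5 and in Mcm6 a pair of overlapping matches, 1 on each strand, makes up the longer run of capitals. The matches are descriptions of letters and no binding was measured.

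Of the genes of DNA synthesis and nucleotide supply, 2 had a higher and 3 a lower fitted value. Pcna was at 39.8, 32.7 and 43.2 CPM in the Hes1 cKO libraries and at 41.1, 32.1, 32.8 and 35.6 CPM in the controls. Its mean was 38.6 ± 5.38 (SD, n = 3) against 35.4 ± 4.06 CPM (SD, n = 4), and its log2 fold change of 0.12 had an interval of -0.16 to 0.40. Rrm2, the regulated subunit of ribonucleotide reductase, had the highest fold change of the group. It was at 12.0, 8.85 and 7.12 CPM against 12.5, 6.41, 9.39 and 5.40 CPM (log2 fold change 0.15, 95% interval -0.50 to 0.80). Tk1, the thymidine kinase of S phase, had the lowest, at 5.45, 6.48 and 6.76 CPM against 11.8, 5.56, 10.4 and 7.59 CPM (log2 fold change -0.50, 95% interval -1.06 to 0.055, edgeR adjusted p = 0.885). Controls 1 and 3 were above every other library in Tk1, and control 2 lay inside the Hes1 cKO range. Rrm1, the other subunit, differed least between libraries, with a 1.16-fold range over the controls and a log2 fold change of -0.0092 (95% interval -0.22 to 0.20). For Tyms, thymidylate synthase, the log2 fold change was -0.22.

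Mitotic kinases and checkpoint genes had higher fitted values in 4 of 5 tested genes (median log2 fold change 0.47), and every interval held 0. Bub1b, the BubR1 checkpoint protein, was at 2.33, 1.24 and 1.65 CPM in the Hes1 cKO libraries and at 2.18, 0.424, 0.659 and 1.20 CPM in the controls. That gave the largest fold change of any proliferation gene, a log2 value of 0.64 with an interval of -0.48 to 1.77. Cdc20, an activator of the anaphase-promoting complex, had the lowest of the group: 5.87, 3.61 and 4.29 CPM against 6.77, 2.28, 6.97 and 2.95 CPM (log2 fold change -0.044, 95% interval -0.93 to 0.85). In both genes a control library reached nearly as high as, or higher than, the highest Hes1 cKO library. Aurka, Aurkb and Plk1, kinases of spindle assembly and chromosome segregation, had log2 fold changes of 0.47, 0.30 and 0.55. Without Hes1 cKO 1 the median of the group was 0.14. Bub1 was then also tested, so this median is not over the same genes as the 0.47. Without control 4 the median was 0.31.

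In the group of spindle, kinetochore and chromosome genes 5 of 7 had higher fitted values (median log2 fold change 0.31). That median was 0.012 without Hes1 cKO 1, -0.0050 without control 4 and 0.15 without control 2. Cenpe, a kinetochore motor, was at 2.17, 1.93 and 1.94 CPM in the Hes1 cKO libraries and at 1.78, 1.38, 1.59 and 1.04 CPM in the controls. It was the only proliferation gene whose groups did not overlap, a pattern that 7.01% of all tested genes showed in either direction. The means were 2.01 ± 0.14 (SD, n = 3) and 1.45 ± 0.32 CPM (SD, n = 4), and the log2 fold change was 0.48 ± 0.26 (SE; 95% interval -0.097 to 1.05). Neither the edgeR test (unadjusted p = 0.0931, adjusted p = 0.927) nor the exact two-sided permutation test (p = 0.0571, where 0.0286 is the smallest that 35 splits allow) placed it past 0.05. Kif20a, a motor of cytokinesis, had the lowest value of the group, at 1.90, 1.48 and 1.18 CPM against 2.93, 1.01, 2.25 and 1.26 CPM (log2 fold change -0.28, 95% interval -1.17 to 0.60). Kif11, Tpx2, Nusap1 and Cenpf, which build the spindle or attach chromosomes to it, had log2 fold changes from 0.22 to 0.35, and Birc5, survivin, of -0.22.

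Across the 40 members the highest library was control 1 for 18 members, Hes1 cKO 1 for 8 and control 3 for 8, and control 4 was the lowest for 18. The mean log2(CPM + 1) of the mitotic kinases and checkpoint genes, relative to the mean of the controls, was 0.49, 0.059 and 0.21 in the Hes1 cKO libraries and 0.43, -0.33, 0.15 and -0.24 in the controls. For the spindle, kinetochore and chromosome genes it was 0.31, 0.038 and 0.10 in the Hes1 cKO libraries and 0.36, -0.17, 0.22 and -0.41 in the controls. In both groups of genes all 3 Hes1 cKO libraries lay above the control mean, Hes1 cKO 1 and control 1 were the 2 highest libraries and controls 2 and 4 the 2 lowest, so the groups overlapped.

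**Figure D4:**
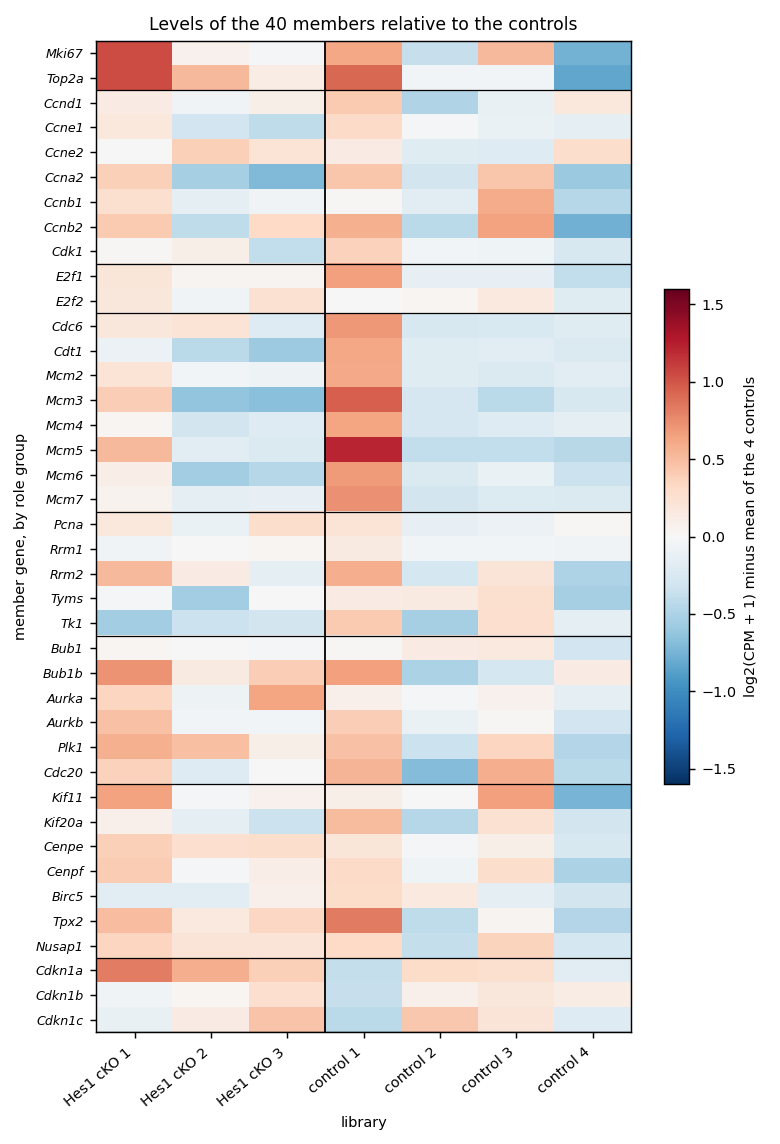
Level of each of the 40 members (rows, in role groups divided by lines) in each library (columns), as log2(CPM + 1) minus the mean of the 4 controls, with red above and blue below. The 8 licensing genes are red in control 1 and pale or blue in the other controls, and the 3 CDK inhibitors at the bottom are blue in control 1.

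**Figure D5:**
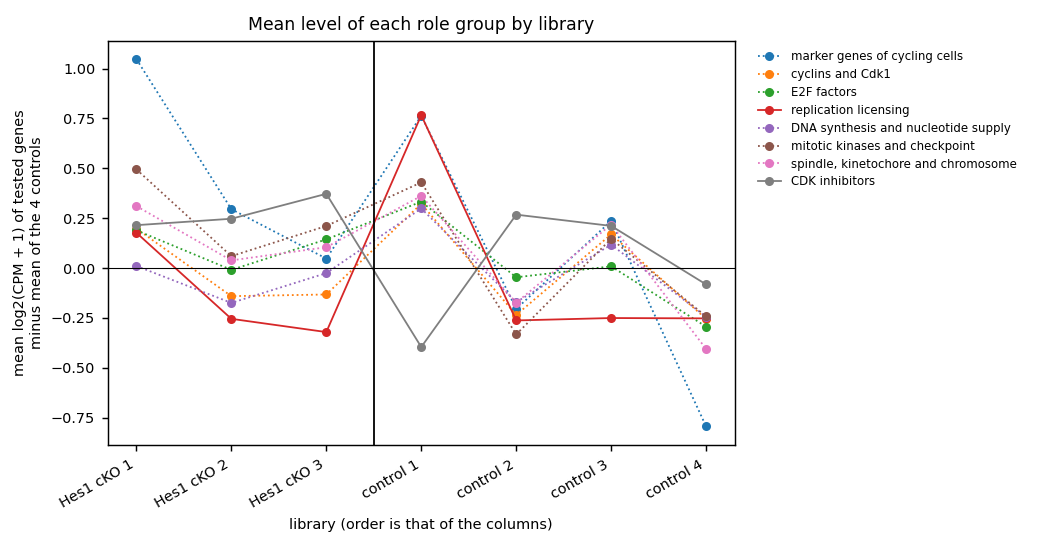
Mean log2(CPM + 1) of the tested genes of each role group in each library (x axis), minus the mean of the 4 controls (y axis); lines only join the points of a group. Licensing genes stand at 0.77 in control 1 and the CDK inhibitors at -0.40 in the same library.

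The same member promoters were searched for the CHR letters TTTGAA and TTCGAA and for CCAAT, on both strands. The search was not limited to genes of mitosis, and Mcm2, Mcm7 and E2f2 were among those with CHR letters. CHR letters stood in 14 of 35 member promoters and in 19.2% of all promoters, and CCAAT in 25 of 35 and in 37.4%. Both marker genes of cycling cells and Kif11 are shown with the CHR letters in capitals, as members of which Hes1 cKO 1 or control 3 was the highest library. The Mki67 stretch is chr7:135716450-135716509 and that of Top2a chr11:99024190-99024249, both on the minus strand, and the Kif11 stretch is chr19:37376322-37376381 on the plus strand.
Mki67: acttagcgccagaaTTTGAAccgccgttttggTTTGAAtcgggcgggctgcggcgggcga
Top2a: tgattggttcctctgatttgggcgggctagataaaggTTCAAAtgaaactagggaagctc
Kif11: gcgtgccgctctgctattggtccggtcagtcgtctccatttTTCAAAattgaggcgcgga
The matches lie in sequence outside annotated exons.

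The CDK inhibitors were reported apart. Cdkn1a, which encodes p21, was at 17.9, 15.1 and 12.9 CPM in the Hes1 cKO libraries and at 7.23, 12.1, 11.7 and 8.57 CPM in the controls. Every Hes1 cKO library lay above every control, though Hes1 cKO 3 exceeded control 2 by little. Groups did not overlap in 2 of the 39 tested members, and in 7.01% of all tested genes in either direction. The means were 15.3 ± 2.48 (SD, n = 3) and 9.92 ± 2.40 CPM (SD, n = 4), and the fitted log2 fold change was 0.63 ± 0.20 (SE; 95% interval 0.18 to 1.07; 1.54-fold). By edgeR the unadjusted p was 0.0108 and the p adjusted over all 15615 genes was 0.622, so Cdkn1a was not called, and the exact two-sided permutation test gave p = 0.0571. Without Hes1 cKO 1 its log2 fold change was 0.50 (95% interval -0.0072 to 1.00). Control 1 was its lowest library, and without control 1 the value was also 0.50 (95% interval 0.10 to 0.90). The gene lies at chr17:29090976-29100727 on the plus strand and overlaps the annotated AC167363.2. Whether reads were counted by strand is not stated, so reads of the overlapping gene cannot be set apart. The same holds for Top2a, Ccnd1, Ccne2, Ccna2, Mcm7, Tk1, Plk1, Cdc20, Kif20a, Nusap1 and Cdkn1c, which also overlap another annotated gene. Over the 15 alternatives its adjusted p ran from 0.216 to 0.9997.

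Cdkn1b, which encodes p27, was at 59.9, 63.4 and 75.5 CPM in the Hes1 cKO libraries and at 47.7, 65.9, 70.4 and 67.5 CPM in the controls. Cdkn1c, which encodes p57, was at 17.6, 21.0 and 26.8 CPM against 13.9, 26.1, 22.3 and 16.5 CPM. The groups overlapped in both. The log2 fold change of Cdkn1b was 0.075 (95% interval -0.24 to 0.39) and that of Cdkn1c 0.14 (95% interval -0.36 to 0.64), and the exact permutation p was 0.714 and 0.600. All 3 inhibitors were lowest in control 1, and without it the values were -0.036 for Cdkn1b and 0.0079 for Cdkn1c. Control 1 was also lowest in 4 of 10 genes of p53 and its targets and in 8 of 9 intercalated cell markers. The share of all tested genes lowest in control 1 was not counted. Whether these low levels bear on the high licensing genes of that library was not tested.

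With the libraries divided by their Xist level, Cdkn1a was at a mean of 12.9 CPM in the Hes1 cKO library and 10.2 CPM in the 2 controls of high Xist, and at 16.5 CPM against 9.68 CPM in the 2 libraries of each group with low Xist. Cenpe was at 1.94 against 1.31 CPM and at 2.05 against 1.58 CPM. Within both divisions the groups did not overlap in these 2 members. This follows from their lack of overlap over all 7 libraries and is no separate result. Overall 22 of the 40 members had the same direction in both. No test was made within a division.

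Promoters were also searched for letters described as bound by Hes1. The class C site CACGCG stood in 3 of 35 member promoters, those of Cdkn1b, Bub1b and Kif11, and in 9.27% of all promoters. The N-box, CACNAG, stood in 16 of 35 and in 42.5%. Cdkn1a held an N-box and no class C letters in its window. Shown here, with the class C letters in capitals, are the inhibitor and the checkpoint gene that hold them, at chr6:134920201-134920260 and chr2:118598121-118598180, both on the plus strand.
Cdkn1b: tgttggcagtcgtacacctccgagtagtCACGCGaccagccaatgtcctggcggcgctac
Bub1b: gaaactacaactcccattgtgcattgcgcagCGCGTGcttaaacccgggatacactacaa
In Cdkn1b the letters lie 172 bases before the start and in Bub1b, on the opposite strand, 59 bases before it. The fold changes of both genes, given above, had intervals that held 0.

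Further cell cycle genes outside the 40 members gave the same count. Of 78 listed in 6 groups, 69 were tested and 0 were called (edgeR), with 2 at an unadjusted p under 0.05. Over all tested genes these shares were 0.339% and 5.95%, so 0 calls in a list of this size says little. They split into 34 higher and 35 lower fitted values, with a median log2 fold change of -0.020. Among p53 and its targets, the median of 10 genes was -0.012. Eda2r, a p53 target that encodes a receptor of the TNF family, was at 1.48, 1.53 and 1.94 CPM in the Hes1 cKO libraries and at 0.229, 1.48, 0.384 and 0.546 CPM in the controls. Its log2 fold change was 1.30 (95% interval 0.14 to 2.46, edgeR adjusted p = 0.752), and control 2 reached the Hes1 cKO range. Rfc3, a subunit of the clamp loader, was at 4.97, 3.56 and 4.94 CPM against 6.54, 6.30, 5.60 and 5.62 CPM. Its groups did not overlap, with a log2 fold change of -0.42 (95% interval -0.82 to -0.024, edgeR adjusted p = 0.798, exact permutation p = 0.0286). It was the only 1 of the 69 without overlap, a pattern that 7.01% of all tested genes showed in either direction. The list of replication fork genes had 3 higher and 10 lower values, and 9 of its 13 tested genes were highest in control 1, as the licensing genes were.

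In the other groups the largest fitted change was 0.23 on the log2 scale for Wee1, a kinase that restrains Cdk1, 0.21 for Foxm1, a factor of mitotic transcription, -0.41 for the INK4 inhibitor Cdkn2b and -0.65 for Prc1, which bundles the midzone of the spindle. The 95% interval of each held 0. Cdkn2a, whose products mark senescent cells, was listed at 0 in 5 libraries and at 0.0588 CPM or less in the others. The INK4 inhibitors tested, Cdkn2b, Cdkn2c and Cdkn2d, gave 2 higher and 1 lower value.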

How the data were processed

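Whole mouse kidney RNA was sequenced as 150 bp paired-end reads, per the labels' protocols. The deposited files hold raw read counts per gene, and the submitters' processing notes name STAR, FastQC, DESeq2, mm10 and GRCm38 without role or version. One table (7 libraries) was used. The other has 9 columns whose names could not be tied to a group, and they were not used. The titles give 7 Hes1 cKO and 9 control samples, whereas the series text gives the sizes the other way round.

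Counts were filtered (filterByExpr, minimum count 10), scaled by TMM and tested with edgeR 4.0.16 (quasi-likelihood, R 4.3.3), with Benjamini-Hochberg adjustment over 15615 genes and calls at 0.05. The tests were run on simulated data first. CPM are of TMM-scaled library sizes. Permutation tests used log2(CPM + 1). Exon lengths came from GENCODE M21 and promoters from RefSeq (GRCm38.p6). Alternatives included DESeq2 1.42.0 and limma 3.58.1. Nothing says which animal each column came from, so p-values measure the spread between these samples, which may be technical.

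Members and lists were chosen with earlier results of these data known. Named with values in every library were called members, those at an unadjusted p under 0.05, each inhibitor, Mki67, Top2a, Ccnd1, Pcna and the extremes of each role group. Mcm5 and Rrm1 were added after their values were seen, as was the scale per kilobase. Libraries of a group differed beyond counting error (chi-square per degree of freedom 11.8 to 41.0), so none was taken as a duplicate.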

Additional observations from a re-analysis of the deposited data

Results flagged for a closer look

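In 9 member genes, and 4 tested genes of the other lists, 1 of the 4 controls stood far from the rest: its gap to the nearest control, divided by the range of the controls, exceeded Dixon's 95% critical value for 4 samples, which chance gives in about 1 in 20 groups. Tested were 39 members and 69 genes of the other lists. Among all tested genes, 1.33% had control 1 above the others in this way. That share leaves out a low control and the other controls, so it is no background for all flagged genes. The ratio was 0.952 for Cdc6, 0.958 for Cdt1, 0.956 for Mcm2, 0.917 for Mcm3, 0.905 for Mcm4, 0.983 for Mcm5, 0.8293 for Mcm6 and 0.951 for Mcm7. These are the 8 licensing genes. Rrm1, the large subunit of ribonucleotide reductase, was also highest in control 1, with a ratio of 0.895. Of the other lists, Zmat3, a p53 target, and Gins1, of the replicative helicase, were also highest in control 1, with ratios of 0.918 and 0.889. The high control was control 2 for Lin54, a DREAM subunit, with a ratio of 0.866, and control 4 for the INK4 inhibitor Cdkn2b, with a ratio of 0.839.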

How the results depend on the processing

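No paired analysis was possible because the column names carry no replicate number of the labels. No member or other listed cell cycle gene was called under any of the 15 alternatives. Besides the fit without control 1, some alternatives put a proliferation gene at an unadjusted p under 0.05 (edgeR). Tk1 had a log2 fold change of -0.67 without control 2 and of -0.51 without the filter on low counts. Cdt1 had -0.53 with Xist as a covariate, and Aurka 0.70 without Hes1 cKO 2. These fits reuse the same libraries and are no separate tests. Genes called over the whole table numbered 53, 130 by DESeq2's Wald test and 102 without the filter on low counts, and 25 to 47 with 1 library left out. With all libraries kept, 7 of 308 member values changed sign: Mcm2 to 0.014 and Rrm1 to 0.0074 with total counts, Ccnb1 to 0.12, Mcm2 to 0.039, Mcm5 to 0.077 and Cdc20 to 0.099 with limma-voom, and Cdc6 to -0.091 with Xist as a covariate. With 1 library left out, 45 of 273 did, in 21 of 39 members, and the cause was not tested. The log2 fold changes of these then ran over the following ranges: Aurkb -0.17 to 0.69, Ccnb1 -0.35 to 0.49, Ccnb2 -0.27 to 0.40, Ccnd1 -0.12 to 0.18, Cdc20 -0.28 to 0.20, Cdc6 -0.13 to 0.68, Cdk1 -0.32 to 0.077, Cdkn1b -0.036 to 0.14, Cdkn1c -0.032 to 0.31, Cenpf -0.0050 to 0.38, E2f1 -0.099 to 0.37, Kif11 -0.11 to 0.81, Kif20a -0.49 to 0.022, Mcm2 -0.12 to 0.25, Mcm3 -0.88 to 0.12, Mcm4 -0.33 to 0.064, Mcm5 -0.44 to 0.56, Mcm7 -0.25 to 0.18, Mki67 -0.100 to 0.65, Rrm1 -0.031 to 0.043 and Rrm2 -0.075 to 0.40. The sign of the other 18 members, Cdkn1a and Cenpe among them, was the same throughout. The median of the proliferation genes ran from -0.11 to 0.22. In the 150 bases before the start, CHR letters stood in 7, E2F in 4 and the N-box in 10 member promoters, against 9.7%, 1.24% and 23.8% of all promoters. Bub1, at 3 to 11 counts in a library, was too shallow to test with all libraries.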

Other observations

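Genes outside the 40 members also moved when control 1 was left out, with no call. Gins1, of the replicative helicase, then had a log2 fold change of 1.05 (95% interval 0.24 to 1.85), Uhrf1, which maintains DNA methylation at replication, of 0.91 (0.093 to 1.73) and Racgap1, of cytokinesis, of 0.53 (0.036 to 1.02). Control 1 was the highest control in each, so leaving it out raised these values. Without control 2, the p53 target Eda2r had a log2 fold change of 2.07 (95% interval 1.20 to 2.94). The p53 targets Ccng1 and Mdm2 had 0.35 and 0.22, each with an interval above 0. Control 2 was the highest control in each, so leaving it out raised these values. With all libraries, the list of p53 and its targets had 5 higher and 5 lower values (median log2 fold change -0.012). The genes named here were chosen after their values were seen.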
